A study of Mus musculus with 20 samples.

Results

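The genes of the microtubule motors that carry cargo along axons, the kinesins and cytoplasmic dynein with its activator dynactin, were followed in lumbar dorsal root ganglia of mice after a nerve lesion. They were chosen by gene symbol: every Kif gene with a number, the kinesin light chains Klc1 to Klc4, the cytoplasmic dynein subunits with symbols beginning Dync or Dynl, and Dctn1 to Dctn6 of dynactin. The mitotic kinesins Kif11, Kif20a, Kif23 and Kif2c were left out. The rule took 63 of 78258 genes in the count table, and 60 of the 63 passed the filter on low counts. Kif12 and Kif2b had at most 2 counts in any library and Kif16bos, an antisense transcript, at most 4, so these 3 were not tested. The pattern also takes a pair of tested symbols that are not motor subunits, Kif1bp, which encodes a kinesin-binding protein, and the pseudogene Dynlt1-ps1.

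RNA came from 10 male mice. The 5 conditional knockout (cKO) mice were Ahr fl/fl with Thy1CRE-ERT2/EYFP, a Cre recombinase activated by tamoxifen and driven by the Thy1 promoter, so that excision is limited to cells in which that promoter is active. The 5 control mice were Ahr f/f or f/+ per the protocol, so that all 10 would carry at least 1 floxed Ahr allele. The labels differ on the controls: the genotype field gives FF for all 5, and the titles call them wildtype. All received tamoxifen (100 mg/kg, 5 days) at 17 weeks of age, and the sciatic nerve was transected on the ipsilateral side 4 weeks later. Ganglia of levels L4 to L6 were taken 1 day after the lesion, with the contralateral ganglia of the same mouse as reference, which gave 4 groups of 5 libraries: control contralateral, control ipsilateral, cKO contralateral and cKO ipsilateral. A label field calls the lesion a spinal cord injury, whereas the protocol describes sciatic nerve transection, which is followed here.

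Kinesins move along microtubules, most of them toward the plus end, which in an axon points away from the cell body. Cytoplasmic dynein, which needs dynactin for long movements, carries cargo the other way, including the injury signals that travel from a cut axon to the nucleus. Sensory neurons of the ganglia supply long peripheral axons from small cell bodies and depend on both directions of transport.

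Libraries held 76.2 to 118.5 M counts, with a median of 87.2 M. Ahr, the targeted gene, had 24.2 ± 2.10 CPM (counts scaled to a common library size with TMM factors; SD, n = 5) in control contralateral and 20.4 ± 0.536 CPM in cKO contralateral libraries, a log2 fold change of -0.25 that was not called (SE 0.0661, edgeR adjusted p 0.103). It passed with DESeq2 (-0.24, adjusted p 0.0216) and without mouse H99 (-0.25, adjusted p 0.0353). Whole-gene exonic counts over all cells were used, so excision of the floxed exon was not measured. All 19 sensory neuron markers were detected, with a summed level of 10528 to 12475 CPM over the 20 libraries. In bulk tissue, fewer cells of a type and less RNA per cell cannot be told apart. The contralateral library of cKO mouse H99 stood apart from the other 4 of its group: its summed neuron markers were 12475 CPM against 10721 to 11586 CPM, and its 7 fibroblast markers 937 CPM against 1009.9 to 2245 CPM. Its summed macrophage markers (105 CPM against 137 to 276) and proliferation markers (58.4 against 70.2 to 92.1) were also below the others, and its motile cilia markers above them (44.98 CPM against 34.99 to 41.2). Its satellite glia (1746 CPM), Schwann cell (4534 CPM) and endothelium markers (142 CPM) lay within the range of the other 4. Control contralateral libraries spanned 803 to 1359 CPM for fibroblast, 56.9 to 78.2 for proliferation and 42.7 to 45.3 for motile cilia markers. H99 lay within these control ranges. It lay just outside those of the neuron (10959 to 12447 CPM) and macrophage markers (107 to 199 CPM). Its level lay above the other 4 for 30 of the 60 motor genes and below them for 14, against 29.4% above and 24.9% below for all tested genes. Results that rest on it are given with and without it.

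Subunits of kinesin-1 and dynein held the highest levels among these genes, and mitotic and ciliary kinesins were among the lowest. Per kilobase of exon, Klc1, a kinesin-1 light chain that links the motor to cargo, had a mean of 298 CPM over the 20 libraries, and Dynll2, a dynein light chain, 280.4 CPM per kilobase. On the same scale the neuronal kinesin-1 heavy chain Kif5a had 185 CPM per kilobase, Kif1a, the motor of synaptic vesicle precursors, 149, and Kif21a, which dampens microtubule growth, 145. The neuronal heavy chain Kif5c had 124 CPM per kilobase, while Kif5b, the heavy chain made in most cell types, had 74.5. The dynein heavy chain Dync1h1 had 48.8 CPM per kilobase, and the other 4 large dynein subunits lay between 44.6 and 69.2. Dync2h1, the heavy chain of the dynein that works in cilia, had 1.22 CPM per kilobase. At the low end were the mitotic kinesin Kif14, with 0.0462 CPM per kilobase, and the ciliary kinesin Kif6, with 0.0906.

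**Figure D1:**
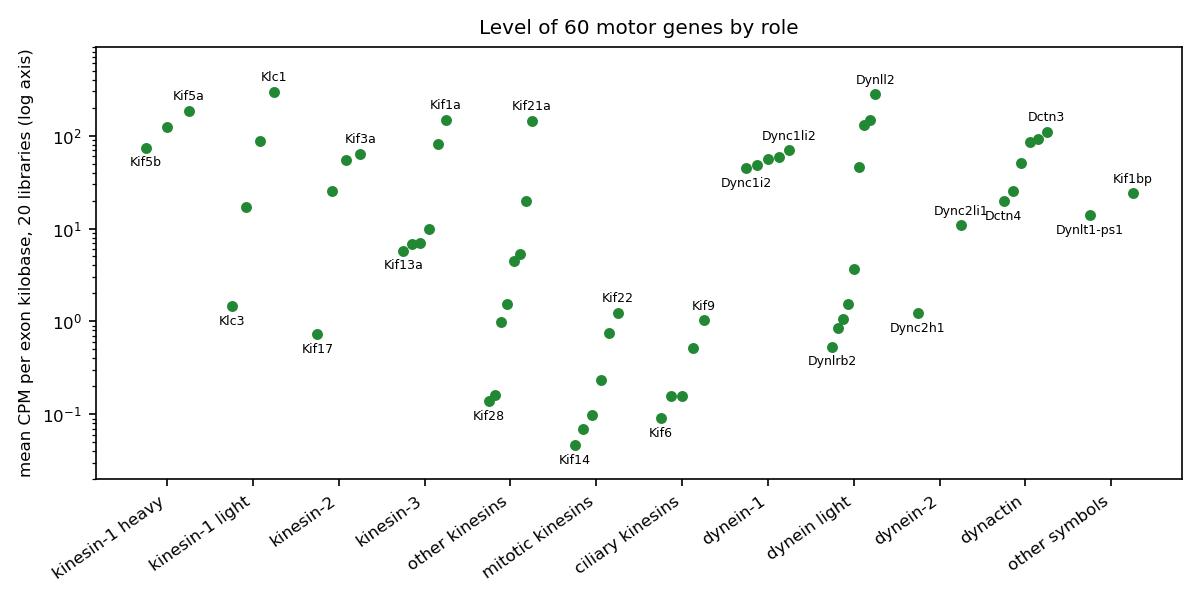
Mean level of each of the 60 tested motor genes over 20 libraries, in CPM per kilobase of exon on a log axis, with 1 point per gene and genes grouped by role. Levels run from 0.0462 (Kif14) to 298 (Klc1) CPM per kilobase, and the mitotic and ciliary kinesins all lie below 2 CPM per kilobase.

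The effect of nerve transection was examined first by comparing ipsilateral with contralateral ganglia. In control mice 19 of the 60 motor genes were called (Benjamini-Hochberg adjusted p under 0.05 over all 28564 tested genes), 8 higher and 11 lower on the lesioned side. That is 31.7% of the motor genes, beside 29.9 percent of all tested genes. By direction it was 13.3% higher beside 13.8 percent of all genes, and 18.3% lower beside 16.0 percent. In cKO mice 17 of 60 were called, 10 higher and 7 lower, or 28.3% beside 31.3 percent of all genes (16.7% higher beside 16.2 percent, 11.7% lower beside 15.1 percent). Among genes past the filter on low counts, the share of motor genes called was thus near the background of the ganglion in both genotypes. The median log2 fold change was -0.01 in control and -0.04 in cKO mice for the motor genes, and -0.00 and -0.03 for all tested genes. Kif22 was the 1 motor gene called with a change of at least 2-fold in either genotype, beside 2.80 percent of all tested genes in control and 3.11 percent in cKO mice. The control counts depended on the mice: without H96 the total was 12, beside 24.0 percent of all genes in the same fit. Without H62 there were 5 higher, beside 12.3 percent. Without H63, H96 or H97 there were 7, 6 or 5 lower, beside 11.3, 11.6 and 11.2 percent of all genes, so that the share lower fell over all genes too. Without H99 the cKO comparison gave 18, 13 higher and 5 lower (beside 31.5 percent of all genes, 17.2 percent higher and 14.3 percent lower). All 5 ipsilateral libraries lay above all 5 contralateral ones for 4 motor genes in control and 7 in cKO mice, beside 11.3 percent and 11.9 percent of all genes. They lay below for 10 and 2, beside 12.3 percent and 8.32 percent.

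Between the genotypes, 11 motor genes were called in both, and all 11 moved in the same direction in both, as did 6101 of the 6103 genes called in both over the whole table. The 6 higher ones were Kif22, Kif3b, Kif3c, Kif13b, Dynlt1f and Dynlt1-ps1, and the 5 lower ones were Kif26a, Kif26b, Kif17, Dync2li1 and Kif1bp. A further 8 were called in control and 6 in cKO mice alone, beside 8.53% and 9.93% of all tested genes, which does not show that the response differed, since the difference was tested separately and is given below. The 6103 genes called in both were 21.4% of all tested genes.

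**Figure D2:**
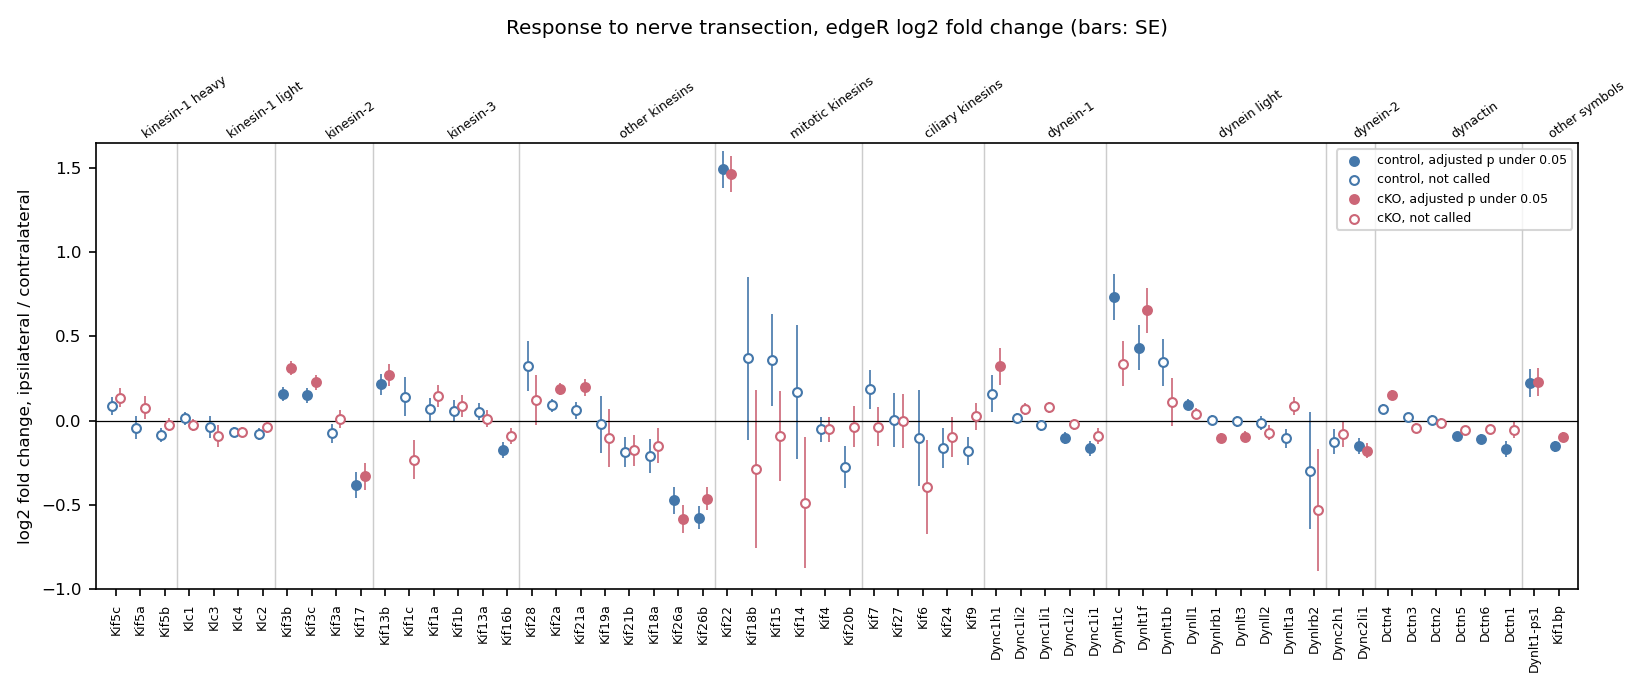
Log2 fold change of each tested motor gene after nerve transection (ipsilateral over contralateral, edgeR), grouped by role, for control mice (blue) and cKO mice (red). Bars are the standard error, filled points have an adjusted p under 0.05, and open points were not called. Kif22 stands highest at 1.49 and 1.46, and the lowest called points are those of Kif26a and Kif26b, from -0.46 to -0.58.

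Kif22, a chromosome-binding kinesin that helps to move chromosomes in dividing cells, had the highest fold change. In control mice it had 3.50, 3.01, 2.72, 3.95 and 2.56 CPM in the contralateral libraries of mice H62, H63, H65, H96 and H97, and 8.76, 8.70, 9.54, 8.60 and 8.82 CPM in their ipsilateral libraries. In cKO mice H61, H64, H95, H99 and H100 it had 3.44, 3.33, 3.51, 2.81 and 3.14 CPM contralaterally, and 8.54, 11.2, 9.15, 7.71 and 8.26 CPM ipsilaterally. Every ipsilateral library was above every contralateral one in both genotypes, and the gene rose in 10 of 10 mice. The log2 fold change was 1.49 in control (SE 0.108, edgeR adjusted p 1.03e-09) and 1.46 in cKO mice (SE 0.108, adjusted p 1.12e-09). The call held in both genotypes under every alternative and without any 1 mouse.

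A further 5 kinesins with roles in cell division, Kif4, Kif14, Kif15, Kif18b and Kif20b, were not called in either genotype. Control mice had log2 fold changes of -0.28 to 0.37 for these genes, cKO mice of -0.49 to -0.03, and 4 of the 5 had mean levels under 2 CPM in every group. Kif18a, which acts on chromosome alignment, was not called either (-0.21 and -0.15). Of the 4 mitotic kinesins left out by the rule, 0 were called in control by edgeR, and Kif11, which slides spindle microtubules apart, was lower in cKO mice (-0.40, adjusted p 0.0369). Among 12 markers of proliferating cells 1 was called in each genotype, Pcna, with 0.14 in control and 0.11 in cKO mice. Fold changes were positive for 11 of the 12 in control (median 0.19) and negative for 7 of the 12 in cKO mice (median -0.10). The summed level of those markers was 56.9 to 78.2 CPM in control contralateral and 60.995 to 96.5 CPM in control ipsilateral libraries, and 58.4 to 92.1 and 66.3 to 76.4 CPM in cKO libraries, ranges that overlap in both genotypes. In GENCODE M21, 1.96% of the exon bases of Kif22 lie opposite exons of the antisense gene Gm31749, which was called higher too (0.22 and 0.40). For Kif4, 15.1% lie opposite Pdzd11 (mean 44.6 CPM against 4.09 CPM for Kif4), which was not called (-0.06 and -0.06). For Kif20a, 29.3% lie opposite Cdc23 (34.7 CPM against 5.87 CPM), not called either (0.06 and 0.07). Whether counting used strand is not given in the sources used here, so reads of these partners may not be separated.

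Of the motor genes called in both genotypes, the 3 with the lowest fold changes were Kif26b, Kif26a and Kif17. Kif26a and Kif26b are atypical kinesins that have lost the ability to use ATP and act in signalling, and Kif17 is a homodimeric kinesin-2 known for transport in dendrites and cilia. Kif26b had 71.8, 78.0, 84.6, 75.1 and 89.5 CPM in the control contralateral libraries (mice in the order given for Kif22) and 54.2, 52.8, 56.1, 49.97 and 54.5 CPM in the ipsilateral ones. In cKO mice Kif26b had 80.4, 64.5, 69.4, 86.4 and 72.2 CPM contralaterally and 53.2, 51.3, 52.05, 58.4 and 55.5 CPM ipsilaterally. The sides did not overlap in either genotype. The log2 fold change of Kif26b was -0.58 in control (SE 0.0691, edgeR adjusted p 1.85e-06) and -0.46 in cKO mice (SE 0.0690, adjusted p 2.54e-05).

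Kif26a had 6.999, 7.98, 8.12, 9.16 and 8.23 CPM in the control contralateral and 5.23, 6.56, 5.22, 5.97 and 6.21 CPM in the control ipsilateral libraries. In cKO mice it had 7.35, 8.34, 7.87, 6.86 and 8.84 CPM contralaterally and 4.87, 5.41, 4.87, 5.39 and 5.66 CPM ipsilaterally. The gene fell in all 10 mice with no overlap of the sides, by 0.47 on the log2 scale in control (SE 0.0817, edgeR adjusted p 1.25e-04) and by 0.58 in cKO mice (SE 0.0818, adjusted p 1.08e-05). Kif17 had 3.49 to 4.16 CPM in the control contralateral and 2.59 to 3.20 CPM in the control ipsilateral libraries, and 3.36 to 3.96 and 2.59 to 3.46 CPM in cKO mice, where the ipsilateral library of H99 (3.46) overlapped the contralateral range. Kif17 fell in all 10 mice, by 0.38 in control (edgeR adjusted p 7.15e-04) and by 0.33 in cKO mice (adjusted p 0.00249). These calls held under every alternative and without any 1 mouse. Beside them, 7 of 19 sensory neuron markers were called lower in control and 5 of 19 in cKO mice, and 0 were called higher by edgeR, where 16.0 percent and 15.1 percent of all tested genes were called lower. Without H99 the cKO comparison called 2 lower, Calca (-0.16) and Isl1 (-0.34), and 1 higher, Avil (0.14). Of the other lists, satellite glia had 2 of 7 markers higher in control and 3 of 7 in cKO mice, Schwann cells 1 of 10 and 0, macrophages 1 of 13 and 0, and endothelium 2 of 7 and 0, with 0 lower by edgeR. Over all tested genes 13.8 percent were called higher in control and 16.2 percent in cKO mice. Fibroblasts had 0 of 7 called in control and 1 of 7 lower in cKO mice. Fold changes of the 7 fibroblast markers were positive for all 7 in control (median 0.34) and negative for 6 in cKO mice (median -0.64). Those of the 13 macrophage markers were positive for all 13 in control (median 0.41) and for 8 in cKO mice (median 0.15). Without H99 the cKO medians were -0.76 for fibroblasts, with Col3a1 and Dpt called lower, and 0.05 for macrophages, with 7 positive. The part of these markers in the result was not tested.

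**Figure D3:**
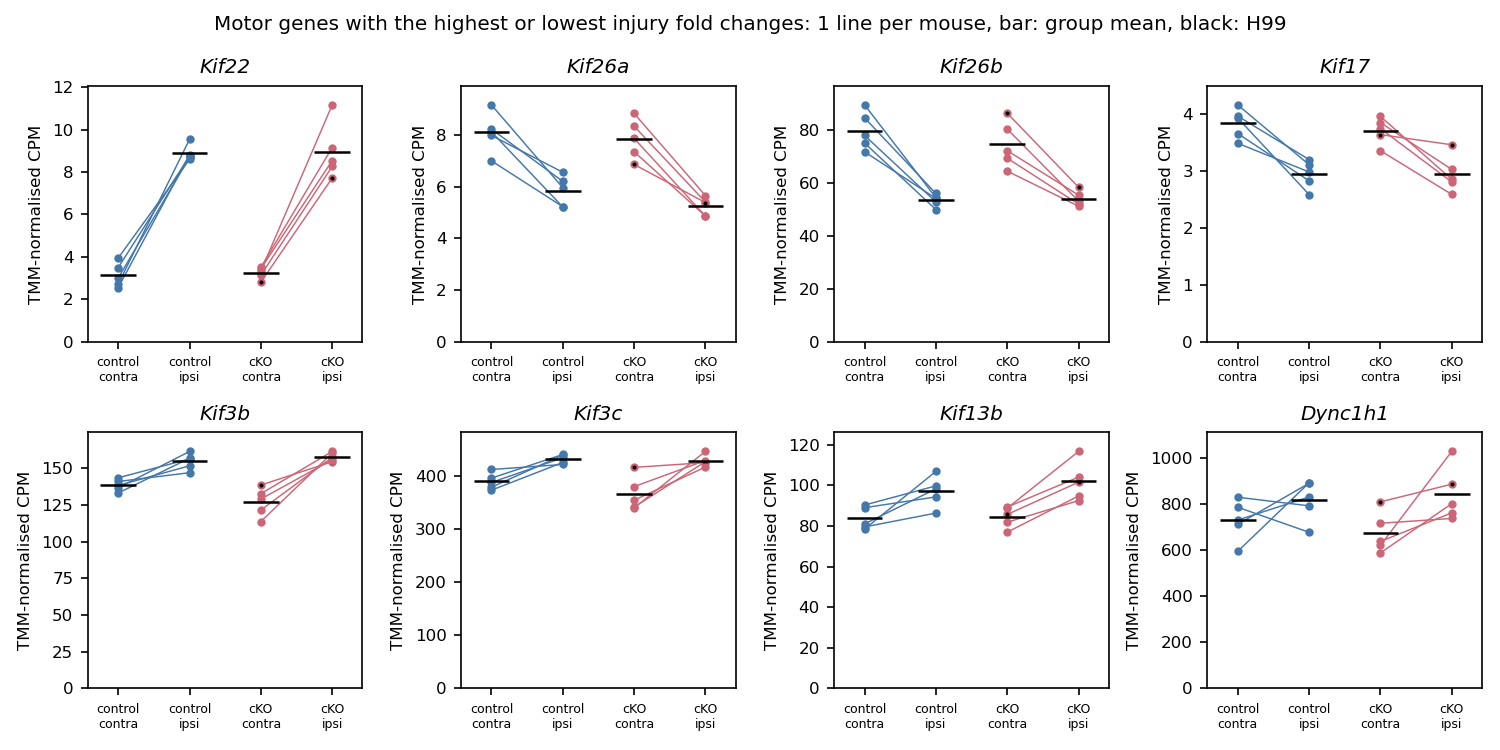
TMM-normalised CPM of 8 motor genes in all 20 libraries, with a line from the contralateral to the ipsilateral library of each mouse (control blue, cKO red), horizontal bars for group means and a black dot for mouse H99. Kif22 is above 7 CPM in every ipsilateral library and below 4 CPM in every contralateral one, and Kif26a, Kif26b and Kif17 fall in all 10 mice.

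For these 4 genes, which had the highest and the lowest fold changes among those called in both genotypes, the 250 bases upstream of the RefSeq transcription start (build GRCm38.p6) are shown 5′ to 3′ on the strand of the gene, so that the regions ahead of genes that moved in opposite directions can be read side by side. Capitals mark matches, on either strand, to 3 motifs: GCGTG, the core of the AhR response element (CACGC on the other strand), TGANTCA, bound by AP-1, and TGACGTCA, the cAMP response element. The windows are chr7:127042421-127042670 (minus strand) for Kif22, chr4:138262001-138262250 (plus) for Kif17, chr12:112145958-112146207 (plus) for Kif26a and chr1:178528875-178529124 (plus) for Kif26b.
Kif22: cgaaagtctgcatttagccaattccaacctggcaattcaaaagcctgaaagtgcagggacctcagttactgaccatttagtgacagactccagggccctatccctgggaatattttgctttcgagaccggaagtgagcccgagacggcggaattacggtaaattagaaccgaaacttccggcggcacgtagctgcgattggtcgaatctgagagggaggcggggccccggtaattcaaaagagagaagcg
Kif17: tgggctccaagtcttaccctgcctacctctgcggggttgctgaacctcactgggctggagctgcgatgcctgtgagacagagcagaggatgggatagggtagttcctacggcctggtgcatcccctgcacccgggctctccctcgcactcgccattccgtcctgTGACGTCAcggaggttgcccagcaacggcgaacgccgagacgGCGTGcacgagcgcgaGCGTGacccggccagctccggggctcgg
Kif26a: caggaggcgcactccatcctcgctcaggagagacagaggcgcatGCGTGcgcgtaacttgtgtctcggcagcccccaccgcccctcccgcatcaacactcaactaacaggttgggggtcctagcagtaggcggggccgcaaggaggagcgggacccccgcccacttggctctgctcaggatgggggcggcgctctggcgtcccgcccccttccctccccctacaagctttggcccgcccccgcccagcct
Kif26b: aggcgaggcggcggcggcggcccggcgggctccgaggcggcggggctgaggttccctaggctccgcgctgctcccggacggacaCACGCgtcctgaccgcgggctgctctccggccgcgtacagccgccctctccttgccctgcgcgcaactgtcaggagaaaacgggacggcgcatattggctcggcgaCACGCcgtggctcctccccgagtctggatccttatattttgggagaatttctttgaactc

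A start site was listed for 47 of the 63 genes, with 54 windows in all (250 bases before to 50 after the start). GCGTG was present in 25 of the 54, or 46.3%, beside 32.4% of all 32851 promoters of the table. TGACGTCA was present in 5 of 54, or 9.26%, beside 1.79% of all promoters, and those 5 belong to Dctn3, Kif17, Kif18a, Kif5c and Klc1. TGANTCA was present in 0 of 54 motor gene promoters and in 7.81% of all. The Kif22 window held none of the 3 motifs. A match is a run of letters, and binding was not measured. In the annotation, 6.19% of the exon bases of Kif26b lie opposite exons of Gm16564 (-0.54 and -0.48), and 1.62% of those of Kif17 are shared, on the same strand, with Sh2d5 (-0.58 and -0.37), so reads of these partners may not be separated.

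The kinesin-2 family, whose heterotrimeric members carry membrane cargo in axons and build cilia, moved in both directions. Kif3b and Kif3c, which each pair with Kif3a, rose. Kif3b had 144, 133, 137, 141 and 138 CPM in the control contralateral and 156, 157, 162, 147 and 152 CPM in the control ipsilateral libraries. In cKO mice Kif3b had 133, 114, 122, 139 and 129 CPM contralaterally and 161, 160.4, 157, 155 and 156 CPM ipsilaterally. The sides did not overlap in either genotype, and the log2 fold change was 0.16 in control (SE 0.0406, edgeR adjusted p 0.00479) and 0.31 in cKO mice (SE 0.0406, adjusted p 4.03e-06).

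Kif3c, the neuron-enriched partner, had 373 to 411 CPM in the control contralateral and 421 to 439.6 CPM in the control ipsilateral libraries, and 339 to 415 and 416 to 445 CPM in cKO mice. Its log2 fold change was 0.15 in control (SE 0.0444, edgeR adjusted p 0.0135) and 0.23 in cKO mice (SE 0.0444, adjusted p 4.52e-04). Without H62 the control call of Kif3c was lost (0.13, adjusted p 0.0643). Kif3a, their common partner, was not called, with -0.08 in control and 0.01 in cKO mice. Per kilobase of exon, Kif3b made up 31.9% ± 1.29 (SD, n = 5) of Kif3b plus Kif3c in control contralateral and 32.0% ± 0.572 in control ipsilateral libraries (ranges 30.7% to 33.3% and 31.3% to 32.9%), and 31.4% ± 0.840 and 32.7% ± 0.421 in cKO libraries. The ranges of the sides overlapped in both genotypes. In the annotation 35.3% of the exon bases of Kif3c lie opposite 1110002L01Rik (0.05, not called, and 0.12, called) and 7.94% opposite Gm48512, which was called higher in both genotypes (0.18 and 0.25). Reads of these partners may not be separated from those of Kif3c.

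Kinesin-1, the main motor of fast transport away from the cell body, was not called in any of its 7 genes in either genotype, beside 29.9 percent and 31.3 percent of all tested genes. Kif5a had 1238 to 1477 CPM in the control contralateral and 1246 to 1348 CPM in the control ipsilateral libraries, with a log2 fold change of -0.04 (SE 0.0678). In cKO mice Kif5a had 1063 to 1466 CPM contralaterally and 1241 to 1347 CPM ipsilaterally, with 0.08 (SE 0.0678). Kif5b had -0.09 in control and -0.02 in cKO mice. Kif5c had 782 to 927 CPM in control contralateral and 901 to 970.1 CPM in control ipsilateral libraries (0.09), and 745 to 958 and 890.1 to 928 CPM in cKO mice (0.14, SE 0.0546, edgeR adjusted p 0.0618). The cKO value of Kif5c passed the threshold with mouse as a block (0.14, adjusted p 0.0443), with DESeq2 (0.14, adjusted p 0.0354), at a mean CPM of at least 1 (adjusted p 0.0429) and without H96 (adjusted p 0.0397) or H99 (0.20, adjusted p 0.00366). The light chains Klc1, Klc2, Klc3 and Klc4 had log2 fold changes of 0.01, -0.08, -0.04 and -0.07 in control and -0.03, -0.04, -0.09 and -0.07 in cKO mice. Klc3 is uncertain, since 28.1% of its exon bases lie opposite exons of Ercc2.

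The makeup of the kinesin-1 pool was described by the share of each heavy chain in the 3 heavy chains, per kilobase of exon. Kif5c made up 31.4% ± 0.889 (SD, n = 5) in control contralateral and 33.5% ± 0.258 in control ipsilateral libraries, ranges that did not overlap (30.3% to 32.6% and 33.1% to 33.8%). In cKO mice its share was 31.7% ± 0.568 and 33.0% ± 0.599, with ranges that overlapped (31.0% to 32.4% and 32.2% to 33.8%). Kif5b made up 19.95% ± 0.553 and 18.9% ± 0.241 in control, and 20.2% ± 1.05 and 18.8% ± 0.565 in cKO libraries. Its ranges did not overlap in control (19.4% to 20.6% and 18.6% to 19.2%) and overlapped in cKO mice. Kif5a stayed the largest share, 47.6% to 48.7% as group means. Such a gap was not particular to kinesin-1. In control mice the share of Dync1i1 in Dync1i1 plus Dync1i2 ranged from 57.0% to 58.7% contralaterally and 56.2% to 56.9% ipsilaterally. That of Dynll1 in Dynll1 plus Dynll2 ranged from 13.0% to 14.0% and 14.1% to 14.7%. In cKO mice both shares overlapped between the sides. All these shares are descriptions, with no test.

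**Figure D4:**
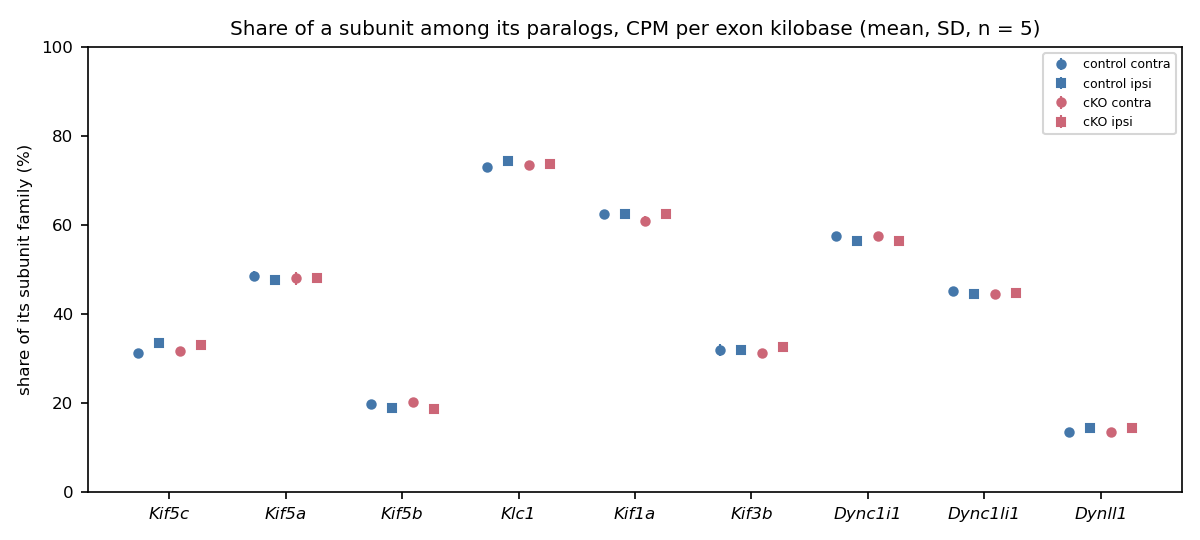
Share of 9 subunits in their paralog family, from CPM per kilobase of exon, as the mean and SD of 5 libraries in each of the 4 groups (circles contralateral, squares ipsilateral; control blue, cKO red). Group means differ by at most a few percentage points, as for Kif5c at 31.4% and 33.5% in control mice.

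Of the kinesin-3 family, which carries vesicles and organelles, Kif13b was called higher in both genotypes. It had 81.0, 89.0, 79.5, 78.5 and 90.3 CPM in the control contralateral and 98.3, 94.3, 86.3, 107 and 99.7 CPM in the control ipsilateral libraries. In cKO mice Kif13b had 81.8, 88.8, 89.3, 85.7 and 77.0 CPM contralaterally and 92.5, 117, 104, 102 and 94.7 CPM ipsilaterally. The gene rose in 10 of 10 mice, and the sides overlapped in control and not in cKO mice. Its log2 fold change was 0.22 in control (SE 0.0640, edgeR adjusted p 0.0140), lost without H62 (0.20, adjusted p 0.0588) or H96 (0.17, adjusted p 0.0900), and 0.27 in cKO mice (adjusted p 0.00260). Kif16b, which binds early endosomes, was lower in control mice (-0.17, adjusted p 0.00836), lost without H96 (adjusted p 0.0566) or H97 (adjusted p 0.0644), and had -0.09 in cKO mice.

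Kif1a had 1238 to 1498 CPM in the control contralateral and 1363 to 1526 CPM in the control ipsilateral libraries, and was not called (0.07, SE 0.0664). In cKO mice it had 1167 to 1542 and 1366 to 1509.9 CPM and was not called either (0.15, edgeR adjusted p 0.104), but passed without H99 (0.22, adjusted p 0.00555). Kif1b, which carries mitochondria and vesicles, had 0.06 and 0.09, Kif1c had 0.14 and -0.23, and Kif13a had 0.05 and 0.01 in control and cKO mice.

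Among the kinesins that regulate microtubules, Kif2a, which takes apart microtubule ends and limits axon branches, and Kif21a were called higher in cKO mice. Kif2a had 107 to 126 CPM in the cKO contralateral and 128 to 137 CPM in the cKO ipsilateral libraries, with no overlap (0.19, SE 0.0375, edgeR adjusted p 5.27e-04). In control mice Kif2a had 119.6 to 128 and 128 to 136 CPM (0.09, SE 0.0375, adjusted p 0.0730). That value passed with RLE size factors (0.10, adjusted p 0.0467), DESeq2 (adjusted p 0.0357), a mean CPM of at least 1 (adjusted p 0.0364), only the libraries compared (0.11, adjusted p 0.00612), and without H95 (0.11), H97 (0.13) or H99 (0.10). Kif21a had 914, 796, 773, 979 and 819 CPM in the cKO contralateral and 965, 1018, 992, 958 and 975 CPM in the cKO ipsilateral libraries. Its level rose in 4 of 5 cKO mice, H99 being the exception (0.20, adjusted p 0.00456), and was not called in control mice (0.06). In the annotation 19.2% of the exon bases of Kif2a lie opposite Dimt1, which was not called (-0.13 and -0.10). Kif21b, a related kinesin with roles in dendrites, had -0.19 and -0.18 and was not called.

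Of the 5 large subunits of cytoplasmic dynein, 2 were called lower in control mice (beside 16.0 percent of all tested genes) and 1 higher in cKO mice (beside 16.2 percent). Dync1h1, the motor chain, had 711, 729, 785, 593 and 828 CPM in the control contralateral and 889, 829, 676, 891 and 791 CPM in the control ipsilateral libraries, and was not called (0.16, SE 0.108). In cKO mice Dync1h1 had 715, 619, 586, 808 and 636 CPM contralaterally and 736, 1026, 800.1, 884 and 760.2 CPM ipsilaterally. It rose in all 5 cKO mice, most in H64, and the sides overlapped (0.32, SE 0.108, edgeR adjusted p 0.0292). This call was lost with mouse as a block (0.32, adjusted p 0.0678), without a filter (0.34, adjusted p 0.0671), and without H64 (0.21, adjusted p 0.192), H95 (0.30, adjusted p 0.0797) or H100 (0.34, adjusted p 0.0554). Of the exon bases of Dync1h1, 2.57% lie opposite Gm35558 (0.21 and 0.25, not called) and 0.307% opposite Gm17111, which was called higher in cKO mice (0.27).

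The intermediate chains, which link the motor to dynactin, were called lower in control mice. Dync1i1, the neuronal one, had 214, 228, 235, 226 and 235 CPM contralaterally and 205, 207, 208, 198 and 198 CPM ipsilaterally in control mice, with no overlap. Its log2 fold change was -0.16 (SE 0.0455, edgeR adjusted p 0.00866), lost without H96 (-0.15, adjusted p 0.0505) or H97 (-0.13, adjusted p 0.0684). Dync1i2 had -0.10 in control mice (adjusted p 0.0284), lost with mouse as a block (-0.10, adjusted p 0.0514), without a filter (adjusted p 0.0765) and without H63, H96 or H97 (-0.08, -0.09 and -0.06). In cKO mice Dync1i1 had -0.09 and Dync1i2 -0.02, and neither was called. The light intermediate chains, which hold cargo adaptors, were not called, with -0.03 and 0.08 for Dync1li1 and 0.01 and 0.07 for Dync1li2. Without H99 both passed in cKO mice, with 0.12 (adjusted p 0.00306) and 0.10 (adjusted p 0.0355). Dync1li1 also passed in cKO mice with DESeq2 (0.08, adjusted p 0.0481) and at a mean CPM of at least 1 (adjusted p 0.0488).

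Of the dynein light chains, Dynll2 and Dynll1 encode small dimers that also bind many proteins outside dynein. Dynll2 was not called (-0.01 and -0.07). Dynll1 had 164 to 180.0 CPM in control contralateral and 180.0 to 191 CPM in control ipsilateral libraries and was called higher (0.09, edgeR adjusted p 0.0368). That call was lost with mouse as a block (0.10, adjusted p 0.0775) and without H62 (0.09), H65 (0.11) or H96 (0.07). In cKO mice it had 0.04. The light chains Dynlrb1 and Dynlt3 were called lower in cKO mice, by -0.10 (adjusted p 0.00852) and -0.09 (adjusted p 0.0227), and had 0.00 and -0.00 in control mice. The Dynlrb1 call was lost without H64 (adjusted p 0.0599) or H95 (adjusted p 0.0712), and that of Dynlt3 without H64 (adjusted p 0.0922), H99 (adjusted p 0.0663) or H100 (adjusted p 0.0704). Both were also lost without a filter (-0.09, adjusted p 0.0783, and -0.08, adjusted p 0.113) and with only the libraries compared (-0.09, adjusted p 0.101, and -0.08, adjusted p 0.120). Dynlrb2, a chain of ciliated cells, had at most 0.375 CPM as a group mean and was not called.

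The Dynlt1 genes are near-identical copies, and how the counting split reads between them is not known, so their values are uncertain one by one. Dynlt1c had 2.60, 2.56, 3.46, 3.01 and 3.38 CPM in control contralateral and 5.73, 5.49, 4.13, 3.88 and 5.74 CPM in control ipsilateral libraries (0.73, SE 0.135, edgeR adjusted p 2.49e-04). In cKO mice Dynlt1c had 0.34 (adjusted p 0.0612), which passed with DESeq2 (0.34, adjusted p 0.0438), at a mean CPM of at least 1 (0.34, adjusted p 0.0495) and without H64 (0.45, adjusted p 0.0205). Dynlt1f was higher in both genotypes, with 0.43 in control (adjusted p 0.0170) and 0.66 in cKO mice (adjusted p 6.91e-04). Its control call was lost without H63 (0.34, adjusted p 0.0837) or H97 (0.40, adjusted p 0.0741). Dynlt1b had 0.35 and 0.11 and Dynlt1a -0.11 and 0.09, and neither was called. In the annotation 13.6% of the exon bases of Dynlt1a lie opposite Tmem181a, which had a mean of 33.8 CPM against 3.61 CPM for Dynlt1a. Tmem181a was called lower in control mice (-0.22) and not called in cKO mice (0.06), and its reads may not be separated from those of Dynlt1a. With mouse as a block Dynlt1b passed in control mice (0.33, adjusted p 0.0101), as it did without H62 (0.36, adjusted p 0.0400). Dynlt1-ps1 was higher by 0.23 in both genotypes (adjusted p 0.0445 and 0.0388). The control call of Dynlt1-ps1 was lost without a filter and without H61, H62, H63, H64, H65, H97 or H100, and the cKO call without H61, H64, H99 or H100.

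Dynactin, the activator of dynein, was called lower in 3 of 6 subunits in control mice, beside 16.0 percent of all tested genes. Dctn1, the arm that binds dynein and microtubules, had 614, 678, 656, 631 and 691 CPM in the control contralateral and 582, 592, 582, 589 and 565 CPM in the control ipsilateral libraries, with no overlap. Its log2 fold change was -0.17 (SE 0.0489, edgeR adjusted p 0.0117), lost without H63 (-0.15, adjusted p 0.0550) or H97 (-0.12, adjusted p 0.0980). In cKO mice Dctn1 had 595, 563, 563, 701 and 588 CPM contralaterally and 566, 568, 563, 609.8 and 588 CPM ipsilaterally, and was not called (-0.06). Dctn5 and Dctn6, at the pointed end of the complex, were lower in control mice by -0.09 (adjusted p 0.00678) and -0.11 (adjusted p 0.00848). In cKO mice they had -0.06 and -0.05, not called, with lower values in 5 of 5 mice for each. The control call of Dctn5 was lost without H96 (-0.08, adjusted p 0.0626) and without a filter (-0.08, adjusted p 0.0840). That of Dctn6 was lost without H63, H96 or H97 (-0.08, -0.09 and -0.09) and without a filter (-0.10, adjusted p 0.0602). Of the exon bases of Dctn6, 11.8% lie opposite Gm26768, for which no row was matched.

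Dctn4, another pointed-end subunit, was higher in cKO mice, with 202 to 232 CPM contralaterally and 236 to 241 CPM ipsilaterally (0.15, SE 0.0304, edgeR adjusted p 5.94e-04). It had 217 to 232 and 231 to 238 CPM in control mice (0.07, adjusted p 0.0931). There it passed with DESeq2 (0.08, adjusted p 0.0306), at a mean CPM of at least 1 (0.08, adjusted p 0.0371), with only the libraries compared (0.09, adjusted p 0.0159), and without H95 (0.09), H97 (0.10) or H99 (0.08). Dctn2 and Dctn3 were not called, with 0.00 and 0.02 in control and -0.01 and -0.04 in cKO mice.

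Motors of cilia and the other symbols made up the rest. Dync2li1, a light intermediate chain of ciliary dynein, was lower in both genotypes, by -0.15 in control (edgeR adjusted p 0.0185) and -0.18 in cKO mice (adjusted p 0.00621). Its control call was lost without a filter (-0.14, adjusted p 0.0589) and without H63, H65, H95 or H97 (-0.12, -0.13, -0.13 and -0.13). Dync2h1 had -0.13 and -0.08 and was not called, and the 5 ciliary kinesins Kif6, Kif7, Kif9, Kif24 and Kif27 were not called in either genotype, beside 29.9 percent and 31.3 percent of all tested genes. Of 8 markers of motile cilia, Foxj1 and Ccdc39 were called lower in control and Foxj1 in cKO mice. The other 6 had positive values in control mice, not called (median of all 8, 0.21), and 3 of the 8 were positive in cKO mice (median -0.09). Kif1bp was lower in both genotypes, by -0.15 in control (adjusted p 5.88e-04) and -0.10 in cKO mice (adjusted p 0.0205). Its cKO call was lost without a filter (-0.08), with only the libraries compared (-0.08), and without H61 (-0.08) or H99 (-0.06). In the annotation 10.1% of the exon bases of Kif1bp lie opposite 4933428P19Rik, which was called lower in control mice (-0.15) and not in cKO mice (-0.08).

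The effect of the knockout was asked on each side. On the contralateral side 0 of 60 motor genes were called by edgeR, beside 0.0735 percent of all tested genes. At an unadjusted p under 0.05 there were 9, beside 17.5 percent of all genes, and 7 of them were lower in cKO (beside 9.53 percent). DESeq2 called 1, Kif1c (0.37, adjusted p 0.0258). Over all tested genes DESeq2 also called many more than edgeR, as counted in the section on processing, so the 0.0735 percent is no background for that call. The lowest unadjusted p belonged to Kif1c (0.37, SE 0.115), Kif3b (-0.12, SE 0.0406) and Dync1li1 (-0.10, SE 0.0342), with edgeR adjusted p of 0.133, 0.138 and 0.145. Kif1c, which carries vesicles and RNA in many cell types, had 77.0, 63.1, 63.05, 57.6 and 61.96 CPM in control and 64.7, 91.0, 93.2, 62.4 and 105 CPM in cKO contralateral libraries. The groups overlapped, since H61 and H99 lay among the control values. In 40 of the 60 genes the fold change was negative, and the median was -0.05, beside -0.01 over all tested genes.

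This comparison rests on mouse H99. Without it 13 of 60 motor genes were called, 12 lower and 1 higher in cKO (21.7% beside 11.5 percent of all 28818 genes then tested, of which 5.02 percent were higher and 6.52 percent lower). Leaving out any other mouse gave 0. The higher one was Kif1c (0.46, edgeR adjusted p 0.0142). The lower ones were Kif1a (-0.19), Kif5a (-0.19), Kif21a (-0.18), Dctn1 (-0.18), Kif3b (-0.16), Kif5c (-0.14), Dync1i1 (-0.14), Dync1li1 (-0.14), Kif3c (-0.14), Kif16b (-0.13), Dync1i2 (-0.11) and Dctn4 (-0.09), with adjusted p from 0.00439 for Dctn1 to 0.0478 for Kif5c. In all 12 the contralateral library of H99 lay above the other 4 cKO libraries, beside 29.4% of all tested genes. These 12 were called only once H99 was left out, so its high value in them is largely set by that choice. It is no separate evidence on the motor genes. For Kif5a the values were 1254, 1345, 1361, 1238 and 1477 CPM in control and 1304, 1098, 1063, 1466 and 1221 CPM in cKO contralateral libraries, 1466 being H99. For Kif1a they were 1357, 1441, 1418, 1238 and 1498 CPM in control and 1331, 1192, 1178, 1542 and 1167 CPM in cKO contralateral libraries, 1542 being H99.

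**Figure D5:**
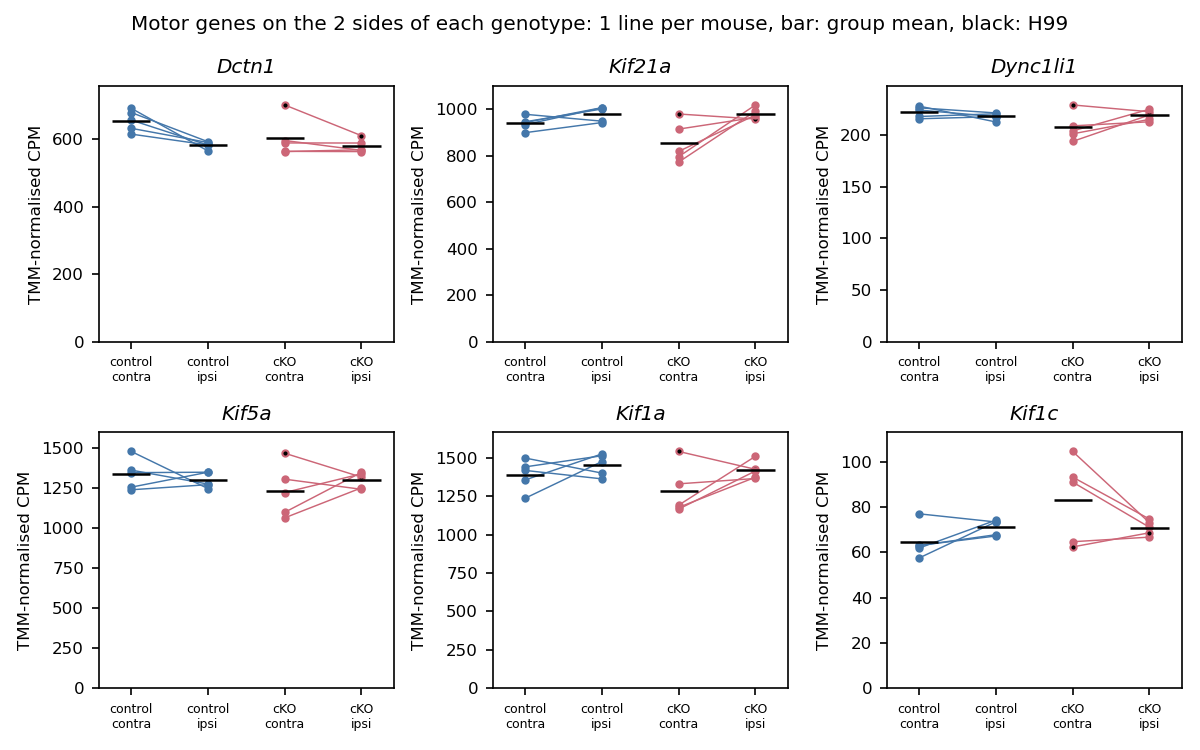
TMM-normalised CPM of 6 motor genes in all 20 libraries, with a line from the contralateral to the ipsilateral library of each mouse (control blue, cKO red), horizontal bars for group means and a black dot for mouse H99. In the cKO contralateral group H99 lies above the other 4 libraries for Dctn1, Kif21a, Dync1li1, Kif5a and Kif1a and below them for Kif1c, while the ipsilateral groups overlap. All 6 genes are among those called between genotypes once H99 was left out.

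Markers of other cell types were summed in the same libraries. Contralaterally, all 7 fibroblast markers had a positive fold change in cKO (median 0.85, 0 called by edgeR), with summed levels of 803 to 1359 CPM in control and 937 to 2245 CPM in cKO libraries, the lowest being H99. All 13 macrophage markers were positive too (median 0.26, 0 called), at 107 to 199 CPM in control and 105 to 276 CPM in cKO libraries. So were all 7 endothelium markers (median 0.14) and 11 of the 12 proliferation markers (median 0.25), with 0 called. Markers of satellite glia (4 of 7 positive), Schwann cells (4 of 10) and motile cilia (3 of 8) went both ways, with 0 called. Of the 19 neuron markers 15 were negative (median -0.03, 0 called), at 10959 to 12447 and 10721 to 12475 CPM. Without H99, edgeR called 7 of the 19 neuron markers lower in cKO (Scn9a, Scn10a, Mrgprd, Avil, Rbfox3, Ntrk2 and Pou4f1, -0.28 to -0.14), beside 6.52 percent of all genes. It called 3 of the 7 fibroblast markers higher (Col3a1 1.25, Dpt 1.73 and Pdgfra 1.01), beside 5.02 percent of all genes. Of the 13 macrophage markers, whose median was 0.42, it called 0, and likewise 0 of the 12 proliferation markers (median 0.34). In the other lists it called Egfl7 of endothelium higher (0.17), and Scn7a of Schwann cells (-0.21) and Foxj1 of motile cilia (-0.30) lower. None of the markers of these lists was at 0 in all 20 libraries. Their part in the motor gene values was not tested.

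On the ipsilateral side 0 of 60 motor genes were called by edgeR or DESeq2, beside 0.00700 percent of all tested genes, and 0 had an unadjusted p under 0.05, beside 2.36 percent of all genes. The 3 with the lowest p were Kif26a (-0.16, SE 0.0819), Dynll1 (-0.06, SE 0.0334) and Dynlt1a (0.09, SE 0.0538). Leaving out any 1 mouse, H99 included, also gave 0.

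The interaction of genotype and lesion, which tests whether the response differed, gave 0 of 60 motor genes, beside 0.00 percent of all tested genes, with edgeR and with DESeq2. At an unadjusted p under 0.05 there were 5, or 8.33%, beside 9.80 percent of all genes. The lowest p belonged to Kif3b (0.15, SE 0.0574), Dynlrb1 (-0.11, SE 0.0412) and Dynlt1a (0.19, SE 0.0761), each with an edgeR adjusted p of 0.485. The cKO contralateral libraries enter this comparison, the cKO injury comparison and the contralateral genotype comparison, so the values of the 3 are not independent.

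Genes that regulate or attach the motors were taken from a list of 45 adaptors and regulators, of which 44 were tested. In control mice 8 were called higher and 10 lower after the lesion (median -0.02), beside 13.8 percent and 16.0 percent of all tested genes. In cKO mice 9 were higher and 7 lower (median -0.00), beside 16.2 percent and 15.1 percent. Without H99 the cKO comparison called 11 higher and 5 lower, beside 17.2 percent and 14.3 percent of all genes. On the contralateral side 0 of the 44 were called between genotypes by edgeR, and 35 had a negative fold change (median -0.05). Without H99, 7 were called lower in cKO (median -0.06, 34 negative), beside 6.52 percent of all genes. Ndel1, a dynein regulator that works with Lis1, had 175 ± 2.99 CPM contralaterally and 246 ± 5.39 CPM ipsilaterally in control mice (SD, n = 5; log2 fold change 0.49, SE 0.0291, edgeR adjusted p 5.25e-11). In cKO mice Ndel1 had 173 ± 7.02 and 244 ± 7.58 CPM (0.50, adjusted p 3.04e-11), so that it rose in both genotypes. Its paralog Nde1 was higher in control mice (0.26, adjusted p 0.0155), lost without H96 (0.23) or H97 (0.23), and had 0.11 in cKO mice. Madd, which links kinesin-3 to synaptic vesicle precursors, was higher in both genotypes (0.23 and 0.37), as was the dynein adaptor Bicd2 (0.18 and 0.22).

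The lowest called genes of that list in control mice were Kifc2 (-0.33), Borcs5 (-0.16), Kifc3 (-0.15) and Clstn1 (-0.13). Kifc2 and Kifc3, kinesins that move toward the minus end, were called lower in cKO mice too (-0.22 and -0.23). Borcs5, part of the complex that couples lysosomes to kinesin, had -0.09 and Clstn1, a cargo receptor of kinesin light chain, -0.06 in cKO mice, neither of them called. The control call of Kifc3 was lost without H65 or H96 (-0.12 and -0.11), and that of Clstn1 with RLE size factors, without a filter and without 7 of the 10 mice. Borcs5 passed in cKO mice at a mean CPM of at least 1 (adjusted p 0.0416) and without H61 (-0.12, adjusted p 0.0391).

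Among 22 microtubule-associated proteins, which bind the track on which these motors run, 5 were called higher and 6 lower in control mice, beside 13.8 percent and 16.0 percent of all tested genes. In cKO mice 8 were higher and 2 lower, beside 16.2 percent and 15.1 percent. Those with the highest fold changes, named after their values were seen, were Map7d1, a relative of the kinesin-1 recruiter Map7, with 0.66 and 0.71, Map6, which stabilises microtubules, with 0.54 and 0.59, and the doublecortin-like kinase Dclk1 with 0.36 and 0.45. Map7 itself was called lower (-0.31 and -0.23). On the contralateral side 0 of the 22 were called between genotypes by edgeR, and 21 had a negative fold change (median -0.07). Without H99, 8 were called lower (median -0.12, all 22 negative), beside 6.52 percent of all genes. In the interaction 0 were called and 20 were positive (median 0.06), and without H99 edgeR called 1, Map1s (0.21, adjusted p 0.0459).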

How the data were processed

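Poly(A) RNA of 20 ganglion samples was sequenced with a stranded kit as paired reads of 150 bases, per the labels' protocols. The authors deposited 1 table of raw read counts per gene, with versioned Ensembl identifiers. A deposited table of FPKM values was not used. The submitters' processing notes name HISAT2, Picard and the builds mm10 and mm39, with no versions or roles. The counting program, annotation release and strand setting are not given in the sources used here. Symbols and merged exon lengths came from GENCODE M21 (GRCm38), which named 51487 identifiers holding 98.1% of the counts, and promoter sequences from RefSeq (GRCm38.p6).

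From the deposited counts, edgeR 4.0.16 (R 4.3.3) was run with TMM scaling, filterByExpr (minimum count 10, minimum total 15) and the robust quasi-likelihood F-test. All 20 libraries entered 1 fit with a mean per group. There were 5 comparisons: lesion in control and in cKO mice, genotype on each side, and their interaction. P-values were adjusted by Benjamini-Hochberg over all 28564 tested genes, and a gene with an adjusted p under 0.05 was called. Depth was 76.2 to 118.5 M counts, and the smallest count of a tested motor gene in any library was 8. TMM factors were 0.975 to 1.04. CPM are counts over the TMM-scaled depth in M, and SD are over 5 mice. The script was tested on simulated counts with 200 changed genes.

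Alternatives were RLE size factors, DESeq2 1.42.0, no filter, a floor of 1 on the mean CPM, mouse as a block, only the libraries compared, and each mouse left out. Both sides of a mouse share a number in the library names. The title of a cKO contralateral sample shortens that number, and its library name was followed. Over 10 mice the deviations of its 2 libraries from their group means correlated with a median of 0.186 (-0.0546 to 0.361, above 0.1 in 7).

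The motor genes and the lists (adaptors and regulators, microtubule-associated proteins, mitotic kinesins left out, and cell markers of macrophages, fibroblasts, endothelium, sensory neurons, Schwann cells, satellite glia, motile cilia and proliferating cells) were chosen with earlier results of these data known. Genes named singly were a fixed list of 39 with Ahr and the main subunits of each motor, up to 6 highest and 6 lowest called motor genes of each lesion comparison (at least 1 CPM, same sign in all 5 mice, which only 4 lower genes met in cKO mice), the 4 highest and 4 lowest called adaptors in control mice, and the 3 motor genes with the lowest p in each genotype comparison and the interaction. Others are said to be named after their values were seen, or complete a count.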

Additional observations from a re-analysis of the deposited data

Results flagged for a closer look

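Single libraries were compared with the other 4 of their group by the gap to the nearest of them over the whole range of the group, with a critical value of 0.71 for 5 libraries. Of 232 groups of named genes 8 passed it, where chance gives about 11.6. For Kif5c, mouse H96 had 782 CPM in control contralateral libraries against 889 to 927 in the others (0.735). For Kif1c, H62 had 77.0 CPM in control contralateral libraries against 57.6 to 63.1 (0.716). The cKO contralateral library of H99 had 701 CPM of Dctn1 against 563 to 595 (0.763). In cKO ipsilateral libraries H64 had 164 CPM of Dynll1 against 181 to 184 (0.806) and 233 CPM of Madd against 215 to 219 (0.784). In control ipsilateral libraries H97 had 738 CPM of Dynll2 against 777 to 789 (0.758), H62 had 128 CPM of Dctn5 against 133 to 134 (0.777), and H65 had 9.54 CPM of Kif22 against 8.60 to 8.82 (0.767).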

How the results depend on the processing

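No value of a named gene reversed a call under any alternative. In control mice the count of motor genes called was 19, and 12 to 21 with 1 mouse left out (5 to 10 higher, 5 to 11 lower), beside 23.7 to 30.9 percent of all genes. Without a filter 14 of 63 were called, 7 of them lower, beside 12.6 and 6.05 percent of all 56837 genes then tested. DESeq2 called 21, beside 30.4 percent, and a mean CPM of at least 1 gave 21 of 53, beside 40.5 percent. In cKO mice the count was 17, and 14 to 18 with 1 mouse left out (8 to 13 higher, 5 to 7 lower), beside 24.9 to 31.5 percent of all genes. There 13 of 63 were called without a filter, beside 13.1 percent, and 4 of them were lower, beside 5.16 percent. With only the libraries compared 4 were lower, beside 10.3 percent. DESeq2 called 20 (13 higher), beside 32.3 percent, and a mean CPM of at least 1 gave 20 of 53, beside 42.8 percent. How near the motor genes were to the share of all genes thus depended on the filter. Between genotypes on the contralateral side DESeq2 called 1 (1 higher), and leaving out 1 mouse gave 0 to 13 (0 to 1 higher, 0 to 12 lower). Over all genes that comparison called 21, 1041 with DESeq2, 2 with only the libraries compared and 3326 without H99. For the motor genes, the ipsilateral genotype comparison and the interaction gave 0 under every alternative run. With mouse as a replicate block 18 motor genes were called in control and 17 in cKO mice. The block ended the calls of Dync1i2 and Dynll1 in control and Dync1h1 in cKO mice, added Dynlt1b in control and Kif5c in cKO mice, and otherwise left the calls of named genes as they were. The cause of these changes was not tested. Fold changes under 0.1 on the log2 scale, many of them lost without 1 mouse, and genes under 1 CPM are the least certain values.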

Other observations

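Ahr itself was called higher after the lesion in both genotypes, from 24.2 ± 2.10 to 34.4 ± 2.86 CPM in control (SD, n = 5; log2 fold change 0.50, edgeR adjusted p 4.70e-06) and from 20.4 ± 0.536 to 31.9 ± 2.94 CPM in cKO mice (0.65, adjusted p 1.45e-07). Among the microtubule-associated proteins, Dcx, the doublecortin gene of migrating and growing neurons, was lower in control mice (-0.51) and not called in cKO mice (-0.23), and its relative Dclk2 was lower in both genotypes (-0.30 and -0.29), while Dclk1 was higher in both. In the edgeR interaction with all 10 mice, none of these differences between genotypes was called. These genes were named after their values were seen. Within the adaptor list, Rilp, which links late endosomes to dynein, and Ninl, a dynein adaptor of the centrosome, were called lower in cKO mice (-0.51 and -0.32) and not called in control mice (-0.28 and -0.12), also named after their values were seen.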
